A study of Canis lupus familiaris with 8 samples.

Results

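The miR-181 family was followed in RNA of vesicles (exosomes) shed into culture medium by dog mammary cells. Its members were taken by name from the deposited table: cfa-miR-181a, cfa-miR-181b, cfa-miR-181c and cfa-miR-181d (called miR-181a to miR-181d from here on), which are 4 of 452 mature miRNAs and 6 of 511 loci. For a name listed at more than 1 locus, the values are those of the copy with the highest mean. This was the chromosome 7 copy for miR-181a and the chromosome 9 copy for miR-181b. All 4 members passed the filter on low values, which asked for values above the table's lowest in at least 3 libraries. The family was chosen with its higher values in the tumour lines already known, so its difference between the groups is described here and carries no test as support.

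One group held 5 canine mammary tumour (CMT) lines, namely CMT-12, CMT-27, CMT-28, CMT-47 and CMT-119, each labelled as mammary carcinoma cells and each represented by 1 library. The other held 3 samples of normal canine mammary epithelial cells (CMEC), labelled CMEC1, CMEC2 and CMEC3 and numbered as biological replicates. The sources used here do not say whether the normal samples came from separate dogs, nor do they give breed or age, so any spread within CMEC is the spread between these samples. Cells of both groups grew without serum in a synthetic medium with DMEM and antibiotics. Medium was thrown away after 24 hours, and the cell-free medium of the next 48 hours was taken on day 3. RNA came from 5 mL of it with a kit described as biased towards exosomal content, and the share of the RNA that lay inside vesicles was not tested. In such bulk RNA, more vesicles and more of a miRNA per vesicle cannot be told apart. Each library was made from 500 ng of RNA and read as single reads of 50 bases.

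miRNAs of this family guide Argonaute proteins to partly complementary messenger RNAs, which are then repressed, and the members share the seed bases that choose those targets. In mice, miR-181a is best known from lymphocyte development, where it raises the sensitivity of thymocytes to antigen by repressing phosphatases. In human breast cells, miR-181 members are described to rise with TGF-beta and to repress ATM, a kinase of the DNA damage response, and the pro-apoptotic protein BIM.

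The table lists the family at 3 places in canFam3, with each place holding a pair on 1 strand. On chromosome 7, forward strand, miR-181a spans 4055465 to 4055486 and miR-181b follows at 4055651 to 4055670, with 164 bases between them. On chromosome 9, reverse strand, miR-181a spans 58302585 to 58302606 and miR-181b spans 58301354 to 58301373, with 1211 bases between them. On chromosome 20, reverse strand, miR-181c spans 48593381 to 48593403 and miR-181d spans 48593199 to 48593221, with 159 bases between them. miR-23a, miR-27a and a copy of miR-24 lie on the opposite strand of chromosome 20, the nearest 26964 bases from miR-181c.

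RefSeq's gene table for another dog assembly, UU_Cfam_GSD_1.0, gave the genes nearby, and all 6 loci matched it by gene ID. There, the chromosome 9 copy of miR-181a (MIR181A-2) lies within the bounds of NR6A1, which encodes an orphan nuclear receptor, and of a long non-coding RNA. The chromosome 7 copy (MIR181A-1) lies in no listed gene, and its nearest coding genes are NR5A2 and PTPRC, the latter encoding the leukocyte protein CD45. miR-181c (MIR181C) lies between NANOS3 and ZSWIM4, in no listed gene. Exons and introns were not analysed here.

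Values below are normalised values on the linear scale of the deposited table unless another scale is named, and the lowest possible value in it is 1. Above that floor the values of a library are whole multiples of the worth of 1 read, which allowed reads to be recovered. Recovered reads over the listed miRNAs numbered between 81138 (CMT-12) and 1405893 (CMT-27), and 1 read was worth 0.386 in CMT-28 to 2.83 in CMEC2. The family as a whole rested on 927 to 10115 recovered reads in the CMT lines, but on 413 in CMEC1, 85 in CMEC2 and 190 in CMEC3. The exact 95% intervals given with them hold for counting error alone, because reads that lack molecular identifiers cannot be taken as separate molecules.

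CMT-27 stood apart as a library on the deposited scale: its median log2 value over the tested miRNAs was 6.93, against 3.60 to 4.82 in the others, and its median-of-ratios size factor was 4.19, against 0.464 to 1.16. Values of the family in CMT-27 are therefore also given below on scales that remove this.

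Markers of the labelled and of other cell types were uneven. Of 7 epithelial marker miRNAs, miR-141 was at the floor in all 8 libraries. miR-200b and miR-429 were at the floor in all 3 CMEC samples and in 3 of 5 CMT lines, and miR-200a in 2 CMEC samples and 3 lines. The rest were mostly above it: miR-200c was at the floor in 0 CMEC samples and 1 line, miR-203 in 1 and 0, and miR-205 in 1 and 1. In CMEC1 to CMEC3, miR-200c was low, at 5.44, 25.5 and 12.5. The summed epithelial list held 0.00260% to 0.0198% of the summed value in CMEC and 0.000861% to 2.13% in CMT. The 4 mesenchymal and smooth muscle markers, led by miR-143, held 1.68% to 18.5% in CMEC and 0.0151% to 13.9% in CMT. The 3 skeletal muscle markers held 0.0433% to 1.49% in CMEC and 0.00803% to 0.0727% in CMT. miR-206 among them was at 2570 in CMEC2 and 298 in CMEC3, but at the floor in CMEC1 and in all 5 CMT lines. The liver marker miR-122 ranged from 0.000945% to 9.74% in CMT, highest in CMT-12 at 18357, and held at most 0.0334% in CMEC. Its log2 difference of 4.53 ± 2.03 (SE) was larger than that of any miR-181 member. Red blood cell markers held at most 0.101% of a library, endothelial miR-126 at most 0.00272% and neuronal miR-124 at most 0.00198%. The part of these lists in the values of the family was not tested.

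cfa-miR-181a, the most abundant member in 7 of the 8 libraries by the copies used, was higher in each CMT line than in any CMEC sample. Its values were 323 in CMT-47, 672 in CMT-12, 848 in CMT-119, 2805 in CMT-28 and 3048 in CMT-27. In the normal samples it was at 207 in CMEC1, 133 in CMEC2 and 107 in CMEC3. As deposited, CMT-27 and CMT-28 stood well above the other lines, but after median-of-ratios scaling CMT-27 (728) lay below CMT-119 (800.3), and only CMT-28 (3536) stood out. On the deposited scale the lowest line, CMT-47, was 1.56-fold the highest normal sample. By counting error alone, the neighbours CMEC2 and CMEC3 could not be told apart in this order.

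cfa-miR-181b, which is encoded beside miR-181a at both of its places, had the widest gap between the groups. It was at 249.8 in CMT-47, 401 in CMT-12, 469.9 in CMT-119, 829.5 in CMT-28 and 1706 in CMT-27. The CMEC samples had 81.6, 53.8 and 66.5 in the order of their numbers. The lowest line was again CMT-47, here 3.06-fold the highest normal sample, and the 3 normal samples lay within counting error of their neighbours. So did CMT-119 and CMT-12.

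cfa-miR-181d, of the chromosome 20 pair, was also higher in every CMT line, but by little in the lowest ones. It was at 155 in CMT-119, 193 in CMT-47, 229.9 in CMT-28, 865 in CMT-12 and 1663 in CMT-27, against 137 in CMEC1, 53.8 in CMEC2 and 83.2 in CMEC3. CMT-119 was only 1.13-fold CMEC1, and their counting intervals overlapped. The order of the lines differed from that of miR-181a: CMT-12 stood second for miR-181d, but behind CMT-28 and CMT-119 for miR-181a.

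cfa-miR-181c was the rarest member in every library, and its groups overlapped. Its values were 12.5 in CMT-119, 16.0 in CMT-47, 43.3 in CMT-28, 211 in CMT-12 and 280 in CMT-27. In CMEC it was at 23.9 in CMEC1 and 6.93 in CMEC3 and at the floor in CMEC2. The floor in CMEC2 stands for 0 recovered reads, which allows a share of up to 0.00349% of that library (3 reads). CMT-47 and CMT-119 lay below CMEC1, and from CMT-28 down each library was within counting error of the next.

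**Figure D1:**
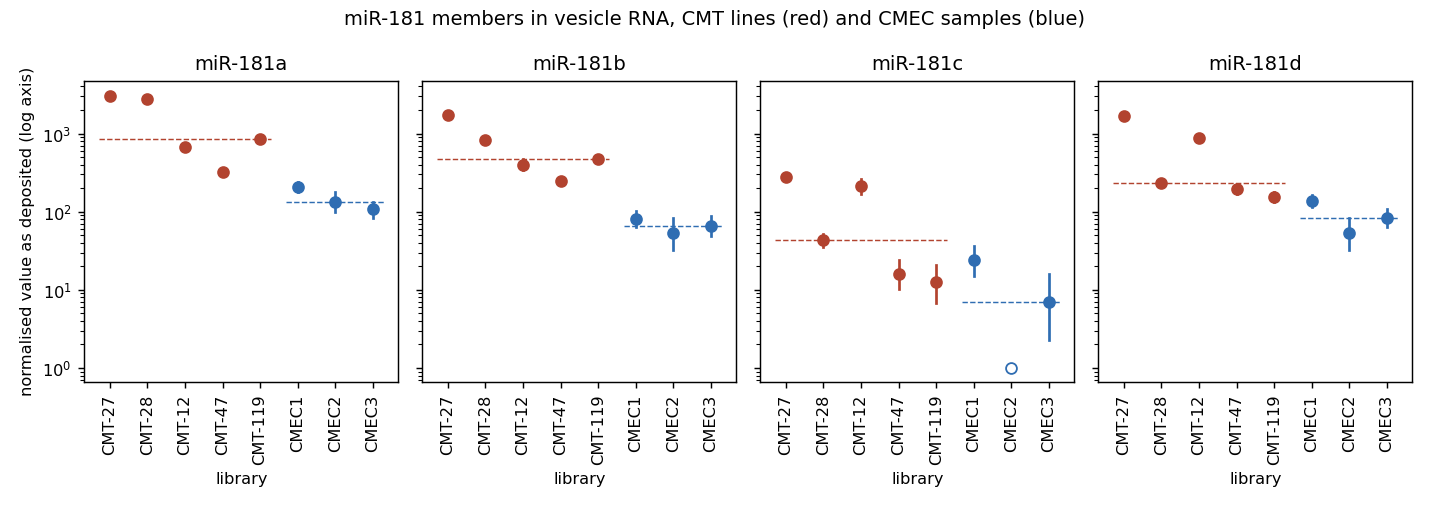
Normalised value of each miR-181 member (log axis) in the 8 libraries, with CMT lines in red and CMEC samples in blue. Vertical bars are exact 95% counting intervals, dashed lines are group medians, and the open circle is miR-181c at the floor in CMEC2; miR-181b shows a clear step between groups, whereas miR-181c in CMT-47 and CMT-119 lies below CMEC1.

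Fitted over all tested miRNAs on the log2(value + 1) scale, which understates differences of low miRNAs, the difference of CMT minus CMEC was 2.93 ± 1.00 for miR-181a (SE, 5 against 3 libraries). It was 3.11 ± 0.99 for miR-181b, 2.96 ± 1.43 for miR-181c and 2.21 ± 1.08 for miR-181d. The median of the 4 members was 2.94, beside 0.75 for all 193 tested miRNAs. As deposited, 141 of the 193 (73.1%) were higher in CMT on average, as were 4 of the 4 members. By size of difference the members ranked 8 (miR-181b), 10 (miR-181c), 11 (miR-181a) and 24 (miR-181d) of 193.

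At an adjusted p under 0.05 (limma, Benjamini-Hochberg over all 193), 0 miRNAs were called (0%), and so no member. At an unadjusted p under 0.05 there were 21, and voom on recovered reads also called 0. The groups did not overlap for 3 members, which are among 15 of the 193 miRNAs with every CMT line above every CMEC sample (7.77%). Since the family was chosen on this contrast, nothing further is read from these counts. Without CMEC1 the groups of all 4 members were apart, as were 36 of 178 miRNAs (20.2%). That fit called 6 miRNAs, none of them a member. With any other single library left out, miR-181a, miR-181b and miR-181d were apart and miR-181c was not. Beside them, 8.38% (without CMT-119) to 15.3% (without CMT-28) of the tested miRNAs were apart in the same way.

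The scale of a library sets how far the groups lie apart. Relative to the median log2 value of each library, miR-181b was at 3.35 to 5.84 in CMT and at 1.55 to 2.48 in CMEC. On that scale miR-181a was at 3.72 to 7.59 against 2.88 to 3.44, and miR-181d at 2.98 to 5.03 against 2.15 to 2.80. The same 3 members thus remained apart, beside 6 of 193 miRNAs in all (3.11%). miR-181c was at -0.54 to 3.00 in CMT and at -2.62 to -0.18 in CMEC, which overlap.

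As a share of recovered reads, which does not depend on the authors' scaling factor, only miR-181b kept its groups apart among the 4, beside 6 of 193 miRNAs in all (3.11%). It held 0.0345% of reads in CMT-47, the lowest line, and 0.0221% in CMEC2, the highest normal sample, but CMEC2 had 19 reads of it and their intervals overlapped (0.0310% to 0.0382% and 0.0133% to 0.0345%). miR-181a was at 0.0445% in CMT-47, below 0.0547% in CMEC2 and 0.0470% in CMEC1, but its interval (0.0406% to 0.0487%) overlapped theirs (0.0402% to 0.0727% and 0.0406% to 0.0542%). miR-181d was at 0.0266% in CMT-47, below 0.0312% in CMEC1, again with overlapping intervals (0.0236% to 0.0299% and 0.0260% to 0.0371%). The order of the lines changed as well: CMT-27, the highest as deposited for all 4 members, then lay behind CMT-28 and CMT-12 for miR-181a and miR-181b, and behind CMT-12 for miR-181c and miR-181d.

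Together the 4 members held 0.108% of reads in CMT-47, 0.307% in CMT-119, 0.689% in CMT-27, 1.14% in CMT-12 and 1.20% in CMT-28. They held 0.102% in CMEC1, 0.0989% in CMEC2 and 0.0548% in CMEC3. Each line but CMT-47 was thus well above the normal samples, whereas CMT-47 (interval 0.102% to 0.114%) lay within counting error of CMEC1 (0.0925% to 0.112%) and CMEC2 (0.0790% to 0.122%). The mean share was 0.688% ± 0.486 over the CMT lines (SD, n = 5) and 0.0853% ± 0.0265 over the CMEC samples (SD, n = 3). These shares count only the copy used of miR-181a and miR-181b. With the copies of every miRNA summed, the family held 0.167% to 2.01% of the summed value in CMT and 0.0790% to 0.152% in CMEC. The lowest line was again CMT-47 (0.167%), close to CMEC2 (0.152%). miR-21, the leading miRNA, held 24.9% (CMT-12) to 63.1% (CMT-28) of the summed value of a CMT line and 27.9% to 51.8% of a CMEC sample. With miR-21 left out of the total, the family held 0.236% to 3.24% in CMT and 0.0812% to 0.212% in CMEC. Of the reads other than miR-21, its share in CMT-47 (0.237%, interval 0.223% to 0.251%) still overlapped that in CMEC1 (0.212%, interval 0.192% to 0.233%), but not that in CMEC2 (0.110% to 0.170%).

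**Figure D2:**
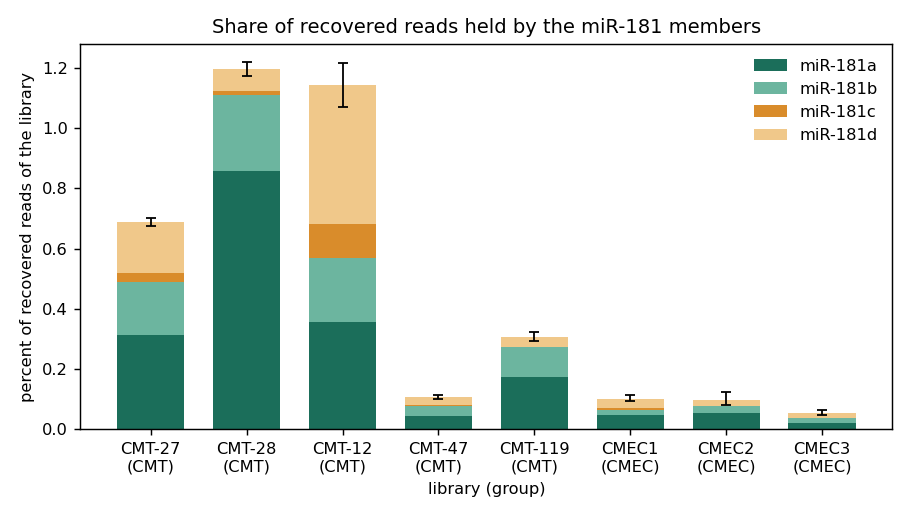
Percent of recovered reads held by the 4 miR-181 members in each library, by the copies used, stacked by member, with exact 95% binomial intervals on the total. CMT-28 and CMT-12 reach 1.20% and 1.14% with different members on top, and CMT-47 is level with CMEC1 and CMEC2.

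Ratios between members within a library are free of that library's scale, except where a member is at the floor. For miR-181a the chromosome 7 copy was used and for miR-181b the chromosome 9 copy, so their ratio does not compare neighbours at 1 place. The ratio of miR-181a to miR-181b was 1.29 (CMT-47) to 3.38 (CMT-28) in the CMT lines and 1.60 (CMEC3) to 2.53 (CMEC1) in CMEC. On the log2 scale it was 0.91 ± 0.51 in the CMT lines (SD, n = 5) and 1.10 ± 0.37 in the CMEC samples (SD, n = 3). This difference of -0.19 was smaller than either spread, and the groups overlapped. CMT-28 was the line with most miR-181a for its miR-181b.

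miR-181c was below miR-181d in all 8 libraries. The log2 ratio of miR-181c to miR-181d was -2.80 ± 0.68 in the CMT lines (SD, n = 5) and -3.55 ± 1.16 in the CMEC samples (SD, n = 3). CMEC2 had miR-181c at the floor, which sets its ratio of -4.78. The difference of CMT minus CMEC was 0.75 over all libraries, and 0.20 without a pseudocount and without CMEC2. The lines CMT-47 and CMT-119, at -3.52 and -3.53, lay with CMEC3 at -3.41, and CMEC1, at -2.47, lay with CMT-27 and CMT-28 at -2.57 and -2.38. The groups did not separate.

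The balance between the pairs varied most among the tumour lines. The summed value of miR-181a and miR-181b was 13.3-fold that of miR-181c and miR-181d in CMT-28, 7.87-fold in CMT-119, 2.74-fold in CMT-47 and 2.45-fold in CMT-27. In CMT-12 it was 0.998-fold, and in CMEC it was 1.79-fold, 3.41-fold and 1.92-fold in the order of the sample numbers. The CMT lines thus lay on both sides of the normal samples, with log2 means of 1.89 ± 1.48 (SD, n = 5) and 1.18 ± 0.51 (SD, n = 3). By the copies used, miR-181d made up 40.2% of the reads of the family in CMT-12, where it exceeded miR-181a (31.3%). It made up 5.88% in CMT-28, where miR-181a made up 71.8%. A further copy of miR-181a and of miR-181b is left out here, whereas miR-181c and miR-181d have no further copy. In CMT-12 the copies of miR-181a were at 672 and 691, against 865 for miR-181d, so adding them would reverse that order. How the copies were counted is not known, so these balances hold for the copies used.

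**Figure D3:**
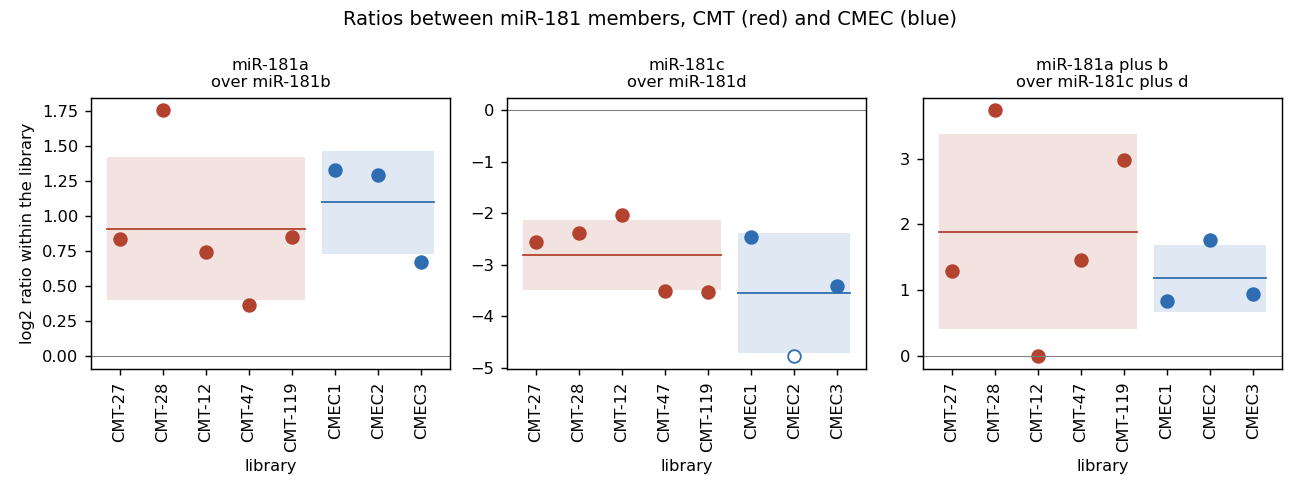
Log2 ratios between miR-181 members within each library, with CMT in red and CMEC in blue; lines are group means, bands are ± 1 SD, and the open circle marks miR-181c at the floor. The groups overlap in all 3 panels, and the CMT lines spread from about 0 in CMT-12 to 3.73 in CMT-28 for the pair balance.

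The copies of miR-181a carried nearly equal values. The chromosome 9 value divided by the chromosome 7 value was 0.959 to 1.03 in CMT and 0.932 to 1.000 in CMEC. For miR-181b the chromosome 9 value was the larger in 8 of 8 libraries, by 1.17-fold to 1.61-fold in CMT and 1.17-fold to 1.67-fold in CMEC, with means of 1.39 ± 0.184 (SD, n = 5) and 1.40 ± 0.251 (SD, n = 3). Mature reads of such copies cannot be assigned to 1 locus, and how the authors counted them is not given in the sources used here. Summed over its copies, miR-181a differed between the groups by 2.94 and miR-181b by 3.12 on the log2 scale.

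Profiles across the 8 libraries were compared by their root-mean-square difference in log2 units after each was centred on its own mean. In this measure the scale of a library cancels, except where values are at or near the floor. It describes likeness over libraries that also share their groups, and it shows no shared function. miR-181a and miR-181b were each other's nearest profile of 192 (0.416). miR-181c had miR-181d as its nearest (0.837), whereas miR-181c was at place 15 for miR-181d. Across the pairs likeness was lower: miR-181d was at place 11 for miR-181b (0.976) and at place 18 for miR-181a (1.18), and miR-181c was at places 45 and 43. The median difference to all other miRNAs was 1.52 (miR-181d) to 2.04 (miR-181c).

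Outside the family, miR-20a of the miR-17~92 cluster, which promotes proliferation, was among the 4 nearest profiles of each member. It was at 1553 in CMT-27, 343 in CMT-12, 289 in CMT-28, 198 in CMT-119 and 167 in CMT-47, and at 119, 56.7 and 49.9 in CMEC1 to CMEC3, so that its groups did not overlap either. It lay 0.527 from miR-181d, 0.630 from miR-181b, 0.795 from miR-181a and 1.14 from miR-181c. miR-18a, of the same cluster, was among the 4 nearest for miR-181a (0.823), miR-181b (0.568) and miR-181d (0.563), but in CMEC it was at the floor or at 1 read. The others were miR-331 and miR-103 for miR-181a, miR-15b and miR-331 for miR-181b, miR-106b, miR-96 and miR-107 for miR-181c, and miR-185 and miR-1841 for miR-181d. Of these, miR-106b and miR-96 were at the floor in CMEC2, as miR-181c was. miR-1841 was at the floor in CMEC2 and CMEC3.

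**Figure D4:**
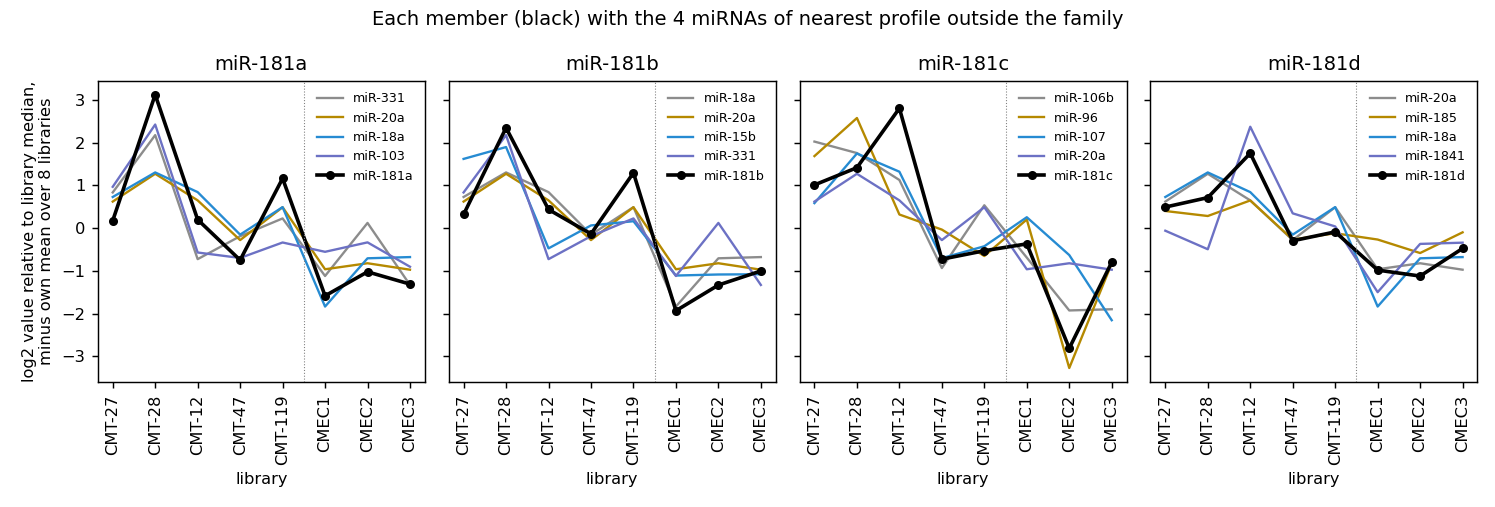
Log2 profiles of each miR-181 member (black), relative to the median of each library and to the profile's own mean, and of its 4 nearest miRNAs outside the family over the 8 libraries, with the dotted line between CMT and CMEC. On this scale, unlike on the deposited one, miR-181a and miR-181b peak in CMT-28 and miR-181c and miR-181d in CMT-12, and miR-20a spans 2.25, against 2.88 (miR-181d) to 5.62 (miR-181c) for the members.

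The miRNAs across the strand from the chromosome 20 pair did not share its profile as a block. miR-27a was at place 6 for miR-181d (0.703) and at place 21 for miR-181c (1.33), with 27666 in CMT-27, 3729 in CMT-12 and 1160 to 2682 in the other lines. miR-23a was at place 150 for miR-181d (2.12) and had its lowest value, 294, in CMT-12, where miR-181d ranked second. miR-24 was at place 67 for miR-181d (1.26), and it has a further locus on chromosome 1.

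A list of 12 miRNAs with roles in blood cell development, as miR-181a has, was set beside the family. Of 11 tested, 0 passed the test in either direction. Their median difference was 1.76, beside 0.75 for all tested miRNAs, with 8 above that median and 3 below. Its largest differences were miR-146a, a brake on inflammatory signalling, at 3.18 ± 1.57, miR-18a at 2.55 ± 0.95, miR-20a at 2.31 ± 1.06 and miR-155, an inducer of immune responses, at 2.29 ± 1.27 (SE). miR-146a reached 1445 in CMT-119 and 6.18 in CMT-28, an order unlike that of miR-181a. The markers of lymphoid and myeloid cells were at or near the floor: miR-223 was at the floor in all 8 libraries, and miR-142 was above 2 only in CMT-12 (27.8) and CMEC2 (19.8). The 3 markers held at most 0.0148% of a CMT library and 0.0116% of a CMEC library, less than miR-181a alone in any library.

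Of 9 miRNAs described to rise with TGF-beta in other mammals, 8 were tested and 0 passed. Their median difference was 1.10, with 5 above and 3 below the median of all tested miRNAs. Their differences had both signs: miR-182 was at 4.22 ± 1.22, miR-155 at 2.29 ± 1.27 and miR-27a at 1.79 ± 1.03, but miR-143 at -2.52 ± 1.72 (SE). miR-182 was 2108 in CMEC1, 70.8 in CMEC2 and 34.7 in CMEC3, whereas miR-181b differed little among these samples.

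The epithelial marker miR-200c, a repressor of the transcription factors ZEB1 and ZEB2, reached 2022 in CMT-12 and 13903 in CMT-27, with 8.06 or less in every other line. CMT-12 and CMT-27 were also the lines with the most miR-181c and miR-181d. On the deposited scale, miR-181a was nearly as high in CMT-28 (2805), where miR-200c was at the floor, as in CMT-27 (3048). After median-of-ratios scaling miR-181a was far higher in CMT-28, at 3536 against 728 in CMT-27.

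The differences of the 4 members kept their sign in all of 16 alternative treatments of the data. The median of all tested miRNAs, 0.75 as deposited, moved with the scaling, and the members with it. After median-of-ratios scaling the median of all tested miRNAs was -0.10, and the members were at 1.96 (miR-181a), 2.15 (miR-181b), 2.17 (miR-181c) and 1.25 (miR-181d). On that scale miR-181b and miR-181d were apart between the groups, beside 5 of 193 miRNAs (2.59%), and miR-181a was not, with 278 in CMT-47 and 287 in CMEC2. After quantile normalisation only miR-181b of the 4 was apart, beside 6 of 193 miRNAs (3.11%).

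**Figure D5:**
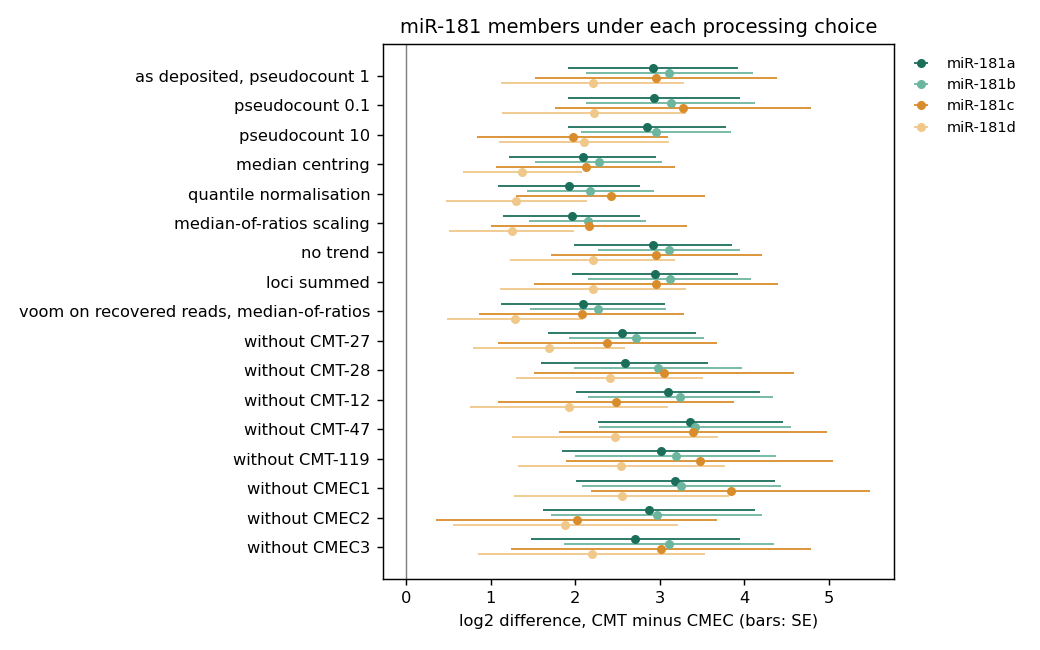
Log2 difference of CMT minus CMEC for each miR-181 member, with its SE, as deposited and under each alternative. All points lie above 0, between 1.25 (miR-181d, median-of-ratios scaling) and 3.84 (miR-181c, without CMEC1).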

How the data were processed

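Vesicle small RNA of 5 CMT lines and 3 CMEC samples was measured. The authors deposited 1 table of normalised signal, with a row for each mature miRNA locus, a column for each library and a floor of 1. The submitters' processing notes name canFam3. For the aligner, the counting program and the normalisation, the method is not given in the sources used here. Above the floor, 99.0% to 100% of values were whole multiples of 1 step per library (tolerance 0.05 steps), from which reads were recovered, a reading taken from the values. Merging 59 further loci left 452 miRNAs. The 193 miRNAs above the floor in at least 3 libraries were fitted with limma 3.58.1 (trend) in R 4.3.3 on log2(value + 1), with Benjamini-Hochberg adjustment and a threshold of 0.05. The fit was tested on simulated data with independent noise for each miRNA. Those data held no floor and no shift of a whole library, so they say nothing about these features. Python 3.11.15 and scipy 1.17.1 gave the intervals. The pair of libraries most alike, CMEC2 and CMEC3, had a chi-square of 45.9 per degree of freedom. Named miRNAs were the members, the 4 nearest profiles of each, the leading miRNA and miRNAs of the fixed lists. From the blood cell and TGF-beta lists, the 4 with the largest differences were given. Cell type markers were named by their values or by being at the floor, and some of them were not tested. The miRNAs beside miR-181c were named after the table was seen. Members and lists were chosen with earlier results of these data known. Mature sequences were not used here.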

Additional observations from a re-analysis of the deposited data

Results flagged for a closer look

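For 15 results, the highest and lowest CMT line were compared with the remaining lines, and 1 result had a line set apart by Dixon's criterion, which chance alone meets in about 1 in 20 such groups. The share of miR-181c in recovered reads was 0.112% in CMT-12 (91 reads, interval 0.0903% to 0.138%), against 0.0288% in the next line, CMT-27. On the deposited scale miR-181c in CMT-12 (211) lay below CMT-27 (280).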

How the results depend on the processing

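Each member's difference kept its sign and its side of the threshold under all 16 alternatives, with lowest and highest values of 1.92 and 3.37 for miR-181a, 2.15 and 3.42 for miR-181b, 1.97 and 3.84 for miR-181c and 1.25 and 2.55 for miR-181d, and limma adjusted p from 0.156 to 0.893. The number of miRNAs called ran from 0 to 6 with a library left out, 6 being without CMEC1. The median of the members minus that of all tested miRNAs was 2.20, ran from 1.71 to 2.58 with a library left out, and was 2.94 with no filter, where miRNAs at the floor throughout set the median of all to 0. The log2 ratio of miR-181a to miR-181c was -0.03 in CMT minus CMEC, 0.78 without a pseudocount and without CMEC2, and -0.65 to 0.85 with a library left out, so it has no stable sign. The mean share of summed value held by the family was 0.602 percentage points higher in CMT. This difference was 0.476 to 0.747 with a library left out, 0.906 with copies summed and 1.26 without miR-21 in the total. Voom with median-of-ratios scaling was chosen after seeing the data. The planned count-model tests and TMM scaling were not run, since the floor of the table hides low reads. Voom and the read shares took values at the floor as 0 reads, so the same limit holds for them. In a library where 1 read is worth less than the floor, such as CMT-28 (0.386), a single read cannot be seen. No paired analysis was made, since the labels link no CMT line to a CMEC sample. miR-181c rests on 0 to 22 reads in CMEC.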
